A study of Mus musculus with 4 samples.

Results

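Ionotropic receptors for glutamate, GABA and glycine are ion channels that open when the transmitter binds, and they carry most fast excitation and inhibition in brain and spinal cord. The genes were chosen by name: every probe set whose only gene symbol on the platform was that of an AMPA, NMDA, kainate, delta, GABA-A, GABA-rho or glycine receptor subunit. This gave 73 of 45037 probe sets without the controls, for 35 of 18193 named genes. A probe set is a group of short oligonucleotides that an Affymetrix array reads as 1 value. By class they covered 4 AMPA, 6 NMDA, 5 kainate, 1 delta, 12 GABA-A, 2 GABA-rho and 5 glycine receptor genes.

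The study hybridised 4 mouse arrays, all with target from total RNA of brain, hindbrain and spinal cord. Amplification with a Nugen kit gave cDNA target for 2 of them, and T7-based amplification gave antisense RNA (aRNA) target for the other 2. In each preparation 1 array is numbered 0 and 1 is numbered 1. Whether the preparations started from the same RNA is not stated. Between cDNA and aRNA arrays, amplification and starting RNA therefore cannot be told apart. The labels give no strain, age, sex or treatment, no meaning of the numbers, and no count of animals. The p-values can thus measure no more than the spread between these arrays, which may be technical. Between the aRNA arrays that spread included sex-linked transcripts, given below.

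Levels and differences are on the log2(intensity + 16) scale, which understates the change of dim probe sets. A level can be compared between arrays at 1 probe set but not between probe sets. Background on an array is the 95th percentile of 27 control probe sets for Bacillus transcripts, 7.83 (array 0) and 8.05 (array 1) for cDNA, and 7.12 and 7.15 for aRNA. Median intensity was 338 to 386 per array. All 6 neuronal marker genes, Snap25 and Nefl among them, were above background on the 4 arrays, with summed intensities of 483828 and 564689 on cDNA and 459338 and 519489 on aRNA. Of 3 forebrain genes measured, Emx1 alone was above background on all 4 arrays, and of 5 hindbrain and spinal cord genes Hoxa5 alone. The arrays also differed in sex-linked transcripts. Xist, an RNA made from the inactive X chromosome, was lowest on aRNA array 0 at 8.55, beside 15.44 on aRNA array 1 and 11.94 and 12.51 for cDNA. Eif2s3y, a gene of the Y chromosome, read 13.12 on aRNA array 0 and at most 7.92 on the others.

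Glutamate receptors fall into several families. AMPA receptors (Gria genes) carry fast excitation, NMDA receptors (Grin) need a co-agonist and let calcium in, kainate receptors (Grik) tune release and excitability, and delta receptors (Grid) bind cerebellins at synapses. GABA-A receptors (Gabr) and glycine receptors (Glr) are chloride channels, and glycine carries much of the inhibition in spinal cord and brainstem.

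Of the 73 probe sets, 46 (28 genes) passed the filter on low values and were tested, and 27 did not. A probe set high on only some arrays could pass on those alone, so the tested members are not a sample of all members. Of the tested ones 41 were above background on all 4 arrays, and 5 on some. Of those left out, 9 were under background on all 4 arrays, 15 on some of them, and 3 on none. The 7 genes with no tested probe set were Gabre, Gabrg3, Gabrq, Gabrr1, Gabrr2, Glra4 and Grin2a. Grin2a, a GluN2 subunit of the adult forebrain, lay under background on every array at its only probe set, as did Glra4 and the GABA-rho subunit Gabrr2.

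Between the preparations, 16 receptor probe sets were higher on cDNA, 10 were lower and 20 did not pass (limma, Benjamini-Hochberg adjusted p threshold 0.05 over 22519 probe sets). Those called made up 56.5% of the members tested, against 43.2% of all probe sets tested. Higher calls took 34.8% of the members against 20.2% of all, and lower calls 21.7% against 22.9%. The 23 glutamate receptor probe sets gave 9 higher and 4 lower, and the 23 GABA-A and glycine receptor probe sets 7 and 6. The median difference of the members was 0.25, beside −0.11 over all probe sets tested. The cDNA and aRNA arrays did not overlap at 35 of the 46, while 73.8% of all probe sets tested showed no overlap. Both cDNA arrays were above both aRNA arrays at 19 members (34.1% of all probe sets) and below them at 16 (39.7% of all). Without aRNA array 0, which stood apart in sex-linked transcripts, the calls were 15 higher and 7 lower.

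**Figure D1:**
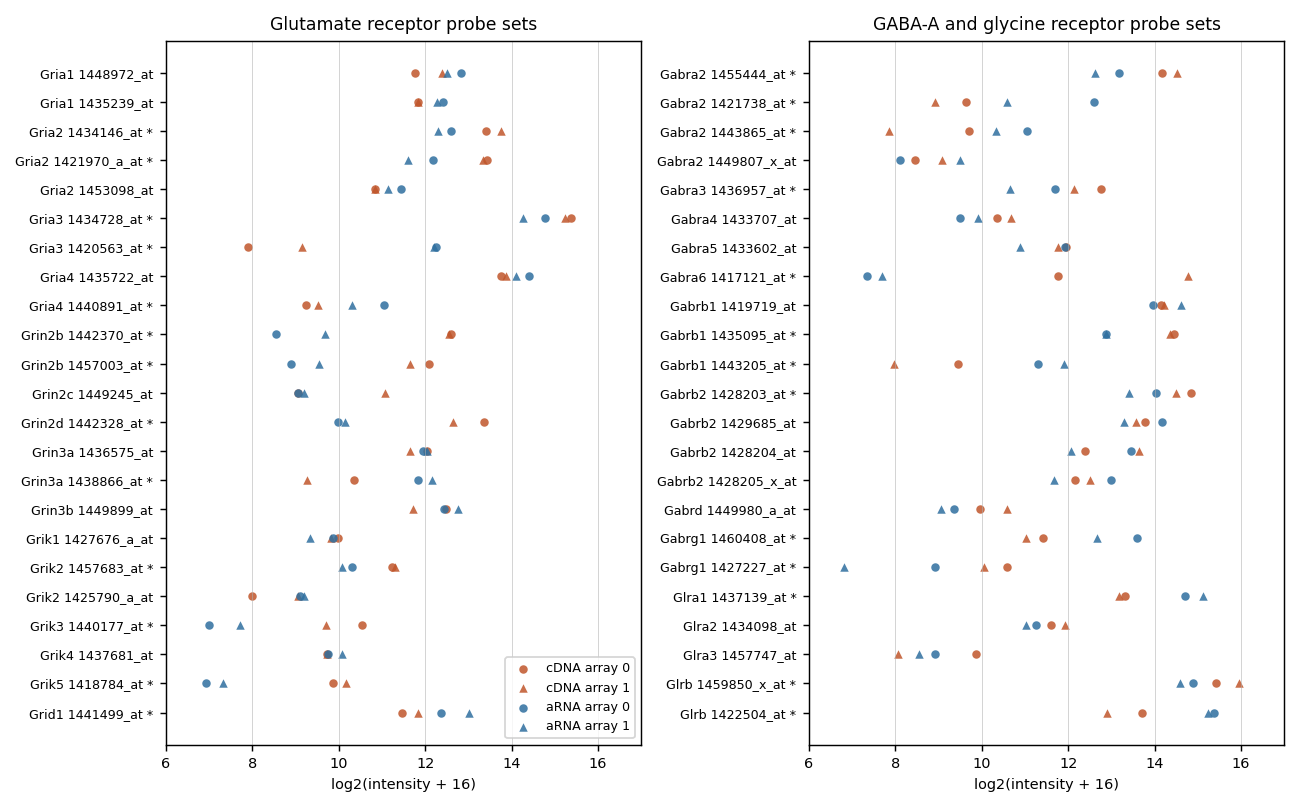
Log2(intensity + 16) at each tested receptor probe set (rows) on the 4 arrays, with circles for arrays numbered 0, triangles for arrays numbered 1, orange for cDNA and blue for aRNA; * marks an adjusted p under 0.05 between the preparations. Orange and blue points lie apart at 35 of the 46 probe sets, with Gabra6 (11.76 and 14.78 on cDNA, 7.33 and 7.68 on aRNA) farthest apart.

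Of 7 tested NMDA receptor probe sets 4 were called (57.1%, against 43.2% of all probe sets tested). As 2 of the 4 are of Grin2b, a split by subunit rests on few probe sets. The GluN2 subunits bind glutamate and set the channel's kinetics, while the GluN3 subunits bind glycine and lower calcium entry. All 3 called GluN2 probe sets were higher on cDNA, and the 1 called GluN3 probe set was lower. Grin2b, the GluN2 subunit most abundant in the young brain, at probe set 1442370_at read 12.61 and 12.55 on cDNA (array 0, then array 1, here and in what follows) and 8.54 and 9.67 on aRNA. Its second tested probe set, 1457003_at, read 12.09 and 11.65 on cDNA and 8.91 and 9.54 on aRNA. Both kept the cDNA arrays well above the aRNA arrays, by 3.47 (SE 0.42, limma adjusted p = 0.000355) and 2.65 (SE 0.39, limma adjusted p = 0.000894). The other 2 Grin2b probe sets lay outside the test: 1422223_at was above background on aRNA array 1 only, and 1431700_at on the aRNA arrays only (8.27 and 7.91, against 4.69 and 6.34 on cDNA), so the latter ran against the tested ones.

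Grin2d, a GluN2 subunit known from brainstem, spinal cord and interneurons, read 13.37 and 12.63 on cDNA and 9.98 and 10.15 on aRNA at 1442328_at. The difference was 2.94 (SE 0.34, limma adjusted p = 0.000288), and it was called under all 13 alternatives. Its dimmer probe set 1421393_at, left out by the filter, also had both cDNA arrays (8.67 and 8.74) above both aRNA arrays (8.30 and 7.62). Grin3a split by probe set. At 1438866_at it read 10.36 and 9.26 on cDNA and 11.83 and 12.16 on aRNA, lower on cDNA by −2.19 (SE 0.42, limma adjusted p = 0.00349). At 1436575_at the arrays overlapped, with 12.05 and 11.65 on cDNA and 11.95 and 12.05 on aRNA. Grin3b also overlapped at its only probe set, 1449899_at (12.47 and 11.71 on cDNA, 12.43 and 12.76 on aRNA).

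Of 6 tested kainate receptor probe sets 3 were called (50%, against 43.2% of all probe sets tested), all higher on cDNA. Grik4 and Grik5 encode the high-affinity subunits, which form channels only together with those of Grik1 to Grik3. Grik5 read 9.87 and 10.17 on cDNA and 6.92 and 7.31 on aRNA at 1418784_at. As aRNA array 0 was under background, the fold was at least 6.97 (limma adjusted p = 0.00242). Grik3 read 10.54 and 9.70 on cDNA and 6.99 and 7.71 on aRNA at 1440177_at, at least 6.54-fold higher on cDNA with aRNA array 0 again under background (limma adjusted p = 0.00415). For both genes both cDNA arrays lay above both aRNA arrays. Their aRNA values all lay under the filter level of 8.38. Both genes therefore passed the filter only through their cDNA values, which favours a call in this direction. Grik2, a principal subunit, was 11.22 and 11.29 on cDNA and 10.32 and 10.07 on aRNA at 1457683_at, a difference of 1.07 (SE 0.34, limma adjusted p = 0.0325). That call is weak: it was lost when any 1 of the 4 arrays was left out (adjusted p up to 0.141) and when arrays were centred on their medians. Grik2's second probe set, 1425790_a_at, gave −0.63 (limma adjusted p = 0.377). Grik1 (0.30, SE 0.42) and Grik4 (−0.18, SE 0.40) did not pass.

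AMPA receptor genes differed by at most 1.13 in size at their brightest probe sets. Gria2, whose edited subunit keeps calcium out of the channel, read 13.40 and 13.75 on cDNA and 12.59 and 12.30 on aRNA at 1434146_at, and 13.44, 13.35, 12.19 and 11.60 in the same order at 1421970_a_at. These are differences of 1.13 (SE 0.26, limma adjusted p = 0.00775) and 1.50 (SE 0.29, limma adjusted p = 0.00318). Leaving out cDNA array 1 ended the former call (adjusted p = 0.052). The other Gria2 probe set, 1453098_at, lay the other way at 10.83 on both cDNA arrays against 11.45 and 11.14 on aRNA, and did not pass (−0.47, adjusted p = 0.276). Gria1 had both cDNA arrays below both aRNA arrays at each of its 2 probe sets, with −0.60 (SE 0.31) and −0.51 (SE 0.27), and neither passed (adjusted p = 0.149 and 0.158). Gria4 ran the same way. At 1435722_at it gave −0.44 (SE 0.22), which did not pass, and at 1440891_at it read 9.24 and 9.51 on cDNA and 11.05 and 10.30 on aRNA (−1.30, SE 0.43, limma adjusted p = 0.0355). Without aRNA array 0, without cDNA array 0 or with no filter the latter call was lost, with adjusted p up to 0.285.

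Gria3 gave the widest contradiction within a gene among all the receptors. Its bright probe set 1434728_at read 15.38 and 15.22 on cDNA and 14.76 and 14.26 on aRNA, higher on cDNA by 0.79 (SE 0.22, limma adjusted p = 0.02). Its other probe set, 1420563_at, read 7.91 and 9.15 on cDNA and 12.26 and 12.19 on aRNA, lower on cDNA by −3.70 (SE 0.46, limma adjusted p = 0.000387). The arrays did not overlap at either. The second call stood under all 12 alternatives that tested it, and the first was lost under 4, 3 of which left out 1 array (adjusted p up to 0.1).

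Grid1, the delta receptor subunit expressed widely in the forebrain, was lower on cDNA at 1441499_at, with 11.46 and 11.83 against 12.37 and 13.01 on aRNA (−1.04, SE 0.32, limma adjusted p = 0.0274). It was not called without cDNA array 0, without aRNA array 1 (adjusted p up to 0.181) or without the intensity trend (0.0635). At its dim probe set 1421569_at the cDNA arrays were above background (8.12 and 8.54) and the aRNA arrays under it.

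GABA-A receptors are built from alpha, beta and further subunits, and the alpha subunit sets much of their location and pharmacology. Of 18 tested GABA-A probe sets 6 were higher on cDNA, 4 lower and 8 not called, where 20.2% of all probe sets tested were higher and 22.9% lower. The alpha subunits, with 8 of the 18 probe sets, held 3 of the higher and 2 of the lower calls. Gabra6, an alpha subunit that cerebellar granule cells make, had the largest difference of any receptor probe set tested. At 1417121_at it read 11.76 and 14.78 on cDNA and 7.33 and 7.68 on aRNA, where it was just above background. The means were 13.27 ± 2.14 and 7.51 ± 0.25 (SD, n = 2 each). The difference was 5.76 (limma SE 0.81, limma adjusted p = 0.000683), a 54.1-fold ratio on this scale, and without cDNA array 1 it was 4.25. The 2 cDNA arrays themselves differed by 3.02. Both aRNA values lay under the filter level of 8.38, so the probe set was tested only through its cDNA values. At the dimmer probe set 1451706_a_at Gabra6 was above background on cDNA array 1 alone (9.77, against 5.63, 6.50 and 6.13).

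Cerebellar marker genes were higher on cDNA, as Gabra6 was, and highest on cDNA array 1. The summed intensity of 6 such genes (Pcp2, Calb1, Car8, Zic1, En2 and Neurod1) came to 39788 and 72920 on cDNA, against 3221 and 1288 on aRNA. All 6 were above background on the first 3 arrays, and 5 on aRNA array 1, where Pcp2 was not. On aRNA each of the 6 was lower on array 1 than on array 0, while Gabra6 at 1417121_at read 7.33 and 7.68. Choroid plexus genes, 4 in number, also summed higher on cDNA (104076 and 173823, against 1105 and 770 on aRNA). All 4 were above background on both cDNA arrays, and 2 and 1 of them on the aRNA arrays. Among meningeal and fibroblast genes, Col1a1 was 20.7-fold and Foxc1 13.6-fold higher on cDNA, Lum was not called and Dcn was 4.68-fold lower. The part of these lists in the Gabra6 result was not tested. In target from whole tissue, fewer cells of a type and less RNA per cell cannot be told apart. Nor can amplification be told apart from the RNA that each pair of arrays started from.

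Grin2c, the GluN2 subunit that mature cerebellar granule cells take up, shared 1 feature with Gabra6: cDNA array 1 was highest. It read 9.06 and 11.06 on cDNA and 9.06 and 9.20 on aRNA at 1449245_at, so cDNA array 0 lay with the aRNA arrays. The preparations did not differ by the test (0.93, SE 0.63, limma adjusted p = 0.263), and the value rests on cDNA array 1: without it the difference was −0.0707 (adjusted p = 0.929), and without cDNA array 0 it was 1.94. The latter passed (adjusted p = 0.00967), but it sets the 1 high array against the aRNA arrays and takes the spread from those alone. Neurod1, a transcription factor of granule cells, read 10.96 and 13.58 on cDNA and 8.96 and 7.52 on aRNA.

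**Figure D2:**
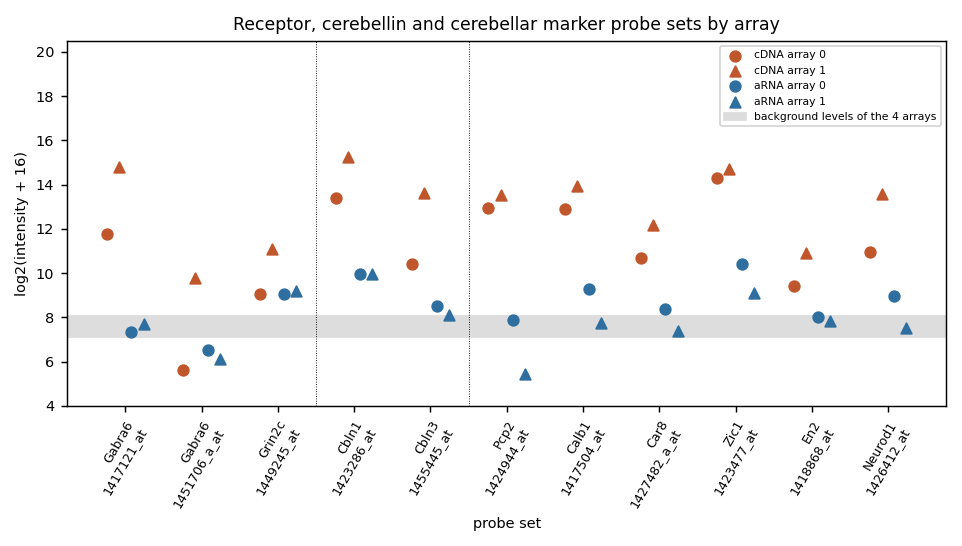
Log2(intensity + 16) on the 4 arrays for Gabra6 and Grin2c (left of the first dotted line), the cerebellins Cbln1 and Cbln3 (middle) and 6 cerebellar marker genes (right), with the grey band spanning the 4 background levels, 7.12 to 8.05. On cDNA array 1 (orange triangles) every probe set shown is at its highest, and the aRNA arrays are below both cDNA arrays at all of them except Grin2c and the dim Gabra6 probe set 1451706_a_at.

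The sequences upstream of Gabra6 and Grin2c are shown because these are the 2 receptor genes that stood out on the same array, a pair picked after their values were seen. They are the 250 bases before each gene's start on the minus strand of GRCm38.p6, from RefSeq, written 5′ to 3′, with capitals for TTGGC, a core that nuclear factor I proteins bind, on either strand. Gabra6 is at chr11:42321073-42321322 and Grin2c at chr11:115267244-115267493.
Gabra6: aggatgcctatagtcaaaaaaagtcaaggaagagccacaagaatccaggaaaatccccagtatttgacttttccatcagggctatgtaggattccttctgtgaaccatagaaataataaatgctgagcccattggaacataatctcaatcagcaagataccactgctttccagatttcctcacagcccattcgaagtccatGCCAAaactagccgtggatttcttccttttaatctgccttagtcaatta
Grin2c: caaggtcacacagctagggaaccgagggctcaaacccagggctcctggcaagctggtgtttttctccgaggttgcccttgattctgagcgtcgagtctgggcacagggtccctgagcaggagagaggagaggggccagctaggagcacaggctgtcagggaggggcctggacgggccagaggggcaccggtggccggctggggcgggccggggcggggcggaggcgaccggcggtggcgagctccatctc
Gabra6 holds 1 match, which begins 49 bases before the start, and Grin2c none. The letters stand in 41.5% of all 32851 such windows given by RefSeq and in 43.3% of the 30 windows of the 26 receptor genes found there, so a match is common. CANNTG, the other motif searched, where N is any base, stood in neither the Gabra6 nor the Grin2c window. It was in 66.2% of all windows and 50% of the receptor windows. G and C make up 40.8% of the Gabra6 window and 68.8% of the Grin2c window.

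The other alpha subunits changed less. Gabra2, an alpha subunit of forebrain and spinal cord, read 14.16 and 14.51 on cDNA and 13.16 and 12.62 on aRNA at 1455444_at, higher on cDNA by 1.44 (SE 0.27, limma adjusted p = 0.00276). At 1421738_at it went the other way, 9.63 and 8.92 on cDNA against 12.58 and 10.59 on aRNA (−2.31, SE 0.61, limma adjusted p = 0.0152). At 1443865_at it was 9.70 and 7.85 on cDNA and 11.04 and 10.34 on aRNA, at least 3.51-fold lower on cDNA, with cDNA array 1 under background (limma adjusted p = 0.0345). Both lower calls were lost without aRNA array 0 or cDNA array 1 (adjusted p up to 0.137 and 0.168), the latter also with no filter (0.0702) and without the intensity trend (0.0664), and the higher call held under all 13 alternatives. A further Gabra2 probe set, 1449807_x_at, overlapped between the preparations (8.44 and 9.08 on cDNA, 8.10 and 9.49 on aRNA). Gabra3 was higher on cDNA at 1436957_at, with 12.76 and 12.12 against 11.69 and 10.66 (1.26, SE 0.40, limma adjusted p = 0.0323), but not called with median centring, without a filter, without the trend, without aRNA array 1 or without cDNA array 0 (adjusted p up to 0.169). Gabra4 (0.82, SE 0.40, adjusted p = 0.128) and Gabra5 (0.44, SE 0.39, adjusted p = 0.38) did not pass.

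The beta subunits, which carry the GABA site together with alpha, were mixed. Gabrb1 had 3 tested probe sets and 3 outcomes. At 1435095_at it read 14.44 and 14.35 on cDNA and 12.87 and 12.88 on aRNA, higher on cDNA by 1.52 (SE 0.22, limma adjusted p = 0.000779). At 1443205_at it was 9.44 and 7.97 on cDNA and 11.29 and 11.90 on aRNA, at least 7.21-fold lower on cDNA with cDNA array 1 under background (limma adjusted p = 0.00268). At 1419719_at, its brightest, the arrays overlapped at 14.15 and 14.22 on cDNA and 13.97 and 14.62 on aRNA. Both Gabrb1 calls held under every alternative that tested them, 13 for the first and 12 for the second. Gabrb2 was higher on cDNA at 1428203_at, with 14.83 and 14.49 against 14.03 and 13.41 (0.94, SE 0.26, limma adjusted p = 0.0189), and its other 3 tested probe sets lay between −0.06 and 0.25. The Gabrb2 call was lost without aRNA array 1, without cDNA array 0 (adjusted p up to 0.11) and without the intensity trend (0.0796).

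Gabrg1, a gamma subunit found in few brain regions and in glia, was called in opposite directions. It read 11.41 and 11.03 on cDNA and 13.59 and 12.67 on aRNA at 1460408_at (−1.91, SE 0.36, limma adjusted p = 0.00283). At 1427227_at it read 10.57 and 10.06 on cDNA and 8.91 and 6.80 on aRNA, at least 4.89-fold higher on cDNA with aRNA array 1 under background (limma adjusted p = 0.0191). The first call held under all 13 alternatives, and the second was lost without aRNA array 1 or cDNA array 0 (adjusted p up to 0.0945). Gabrd, the delta subunit of receptors outside synapses, had both cDNA arrays above both aRNA arrays (9.95 and 10.58, 9.35 and 9.05) but did not pass (1.06, SE 0.44, adjusted p = 0.0774).

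Gabrg1, Gabra2, Gabra4 and Gabrb1 lie side by side on chromosome 5 in the RefSeq gene table, with at most 1 other coding gene between neighbours. Their brightest tested probe sets did not share a direction (−1.91, 1.44, 0.82 and −0.11), and only the first 2 passed. Gabra6 and Gabrb2 are neighbours on chromosome 11, and Gria2 and Glrb on chromosome 3.

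Among glycine receptors, Glra1, the main adult alpha subunit of spinal cord and brainstem, was lower on cDNA at 1437139_at, with 13.32 and 13.17 against 14.71 and 15.11 on aRNA (−1.66, SE 0.23, limma adjusted p = 0.000632). This call held under all 13 alternatives. Glra1's dimmer probe set 1422277_at, left out by the filter, showed no such gap, with 7.94 and 8.31 on cDNA and 7.93 and 8.31 on aRNA. Glrb, the beta subunit that anchors the receptor to gephyrin, was called both ways. It read 15.42 and 15.96 on cDNA and 14.89 and 14.58 on aRNA at 1459850_x_at (0.96, SE 0.23, limma adjusted p = 0.0102), and 13.70 and 12.88 on cDNA and 15.37 and 15.23 on aRNA at 1422504_at (−2.004, SE 0.28, limma adjusted p = 0.000687). The suffix _x_at marks probes that may also bind other transcripts, and the higher call ended when cDNA array 1 (adjusted p = 0.0838) or the intensity trend (0.0681) was left out. The lower call held under all 13. Glra2, the subunit of immature neurons (0.63, SE 0.31), and Glra3 (0.25, SE 0.65) did not pass.

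**Figure D3:**
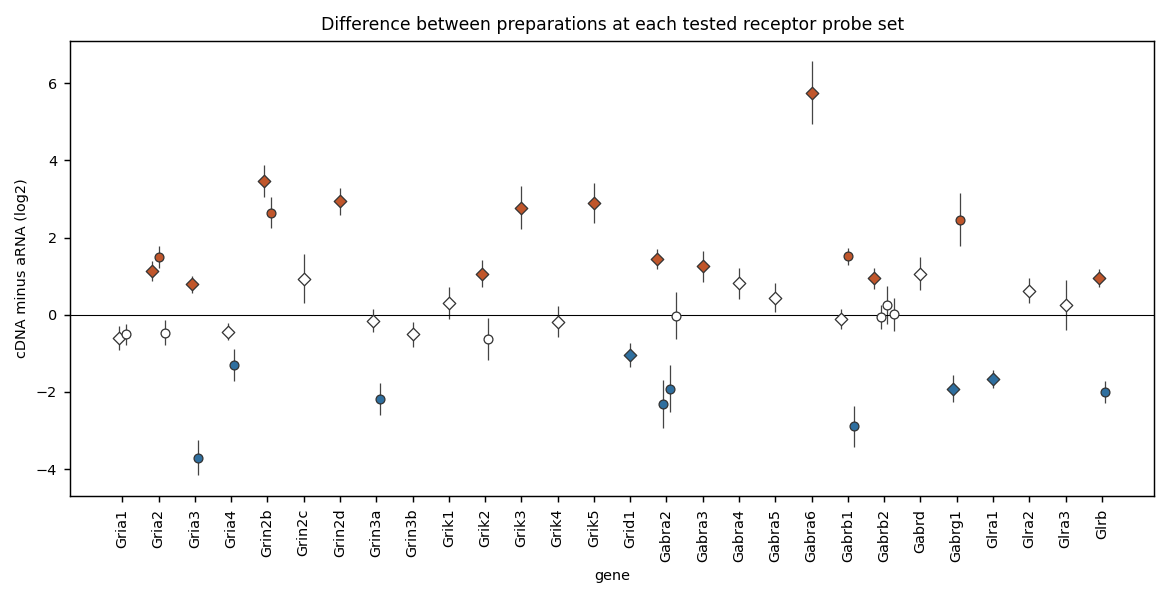
Difference between the preparations (mean of the cDNA arrays minus mean of the aRNA arrays, log2) at each tested receptor probe set, by gene, with bars for the limma SE; diamonds are each gene's brightest tested probe set, and filled points passed an adjusted p of 0.05. Gabra2, Gabrb1, Gabrg1, Glrb and Gria3 each have a filled point above and a filled point below 0.

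Probe sets of a receptor gene often lay on both sides of 0. Of 12 genes with at least 2 tested probe sets, 4 (33.3%) had all of them on the same side of 0: Gria1, Gria4, Grin2b and Grin3a. Over 5034 such genes of the whole table the share was 44.8%, but genes with more probe sets share a side less often. With exactly 2 tested probe sets it was 4 of 8 receptor genes (50%) and 55.6% of all; with 3 or 4 it was none of 4 receptor genes, against 32.0% and 23.2% of all. Of the 7 receptor genes with several calls, 5 had calls in opposite directions, against 766 of 1688 genes (45.4%) overall. The spread of differences within a gene had a median of 2.001 in the receptors and 1.53 over all. At 2 probe sets the medians were 1.87 and 1.13, at 3 they were 3.19 and 1.99, and at 4 they were 2.38 and 2.56. Grin2b and Gria2 were the 2 receptor genes whose several calls all went the same way.

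With 1 probe set per gene, the brightest, 12 of the 28 receptor genes tested were higher on cDNA, 3 were lower (Gabrg1, Glra1 and Grid1) and 13 did not pass, with a median difference of 0.80. Of 11945 genes overall 21.9% were higher and 22.9% lower, with a median of −0.06. By transmitter, the 15 glutamate receptor genes gave 7 higher and 1 lower and the 13 GABA-A and glycine receptor genes 5 and 2. The receptor genes' brightest probe sets therefore sat more often on the cDNA side than those of all genes, a difference that was not tested.

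Genes of the receptors' partner proteins, described at the brightest tested probe set of each gene, are read beside the 21.9% higher and 22.9% lower of all genes. Cerebellins, the secreted ligands of delta receptors, had 3 of 4 members higher and none lower (median 2.29). Cbln1 read 13.39 and 15.26 on cDNA and 9.96 and 9.94 on aRNA (4.38, limma adjusted p = 0.000306), and Cbln3, which granule cells make, 10.42 and 13.64 on cDNA and 8.51 and 8.10 on aRNA (3.73, limma adjusted p = 0.00776). Both were highest on cDNA array 1, as Gabra6 and the cerebellar markers given above were. Of 9 auxiliary subunits of AMPA receptors 2 were higher and 2 lower, close to the shares over all genes. Cacng8, a TARP that traffics AMPA receptors, differed by 3.19 (limma adjusted p = 0.000933), Shisa9 by 1.74 (0.00153) and Cacng5 by −1.63 (0.0039). Cacng4 was at least 3.001-fold lower on cDNA (0.0266), with cDNA array 0 under background. The kainate auxiliary subunits Neto1 (0.34) and Neto2 (−0.28) did not pass.

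Of 15 scaffold genes of excitatory synapses 4 were higher, 1 lower and 10 not called (median −0.18). Homer3, a scaffold abundant in Purkinje cells, differed by 3.11 (limma adjusted p = 0.00162), Dlg2 by 2.89 (9.86e-05), Dlg3 by 2.68 (0.000186) and Dlgap3 by 1.77 (0.00469), while Pick1, which binds AMPA receptor tails, was lower (−1.61, 0.00433). Of 12 genes of inhibitory scaffolds and trafficking 3 were higher, 3 lower and 6 not called (median −0.34), close to the shares over all genes. Gphn, the gephyrin gene, differed by 0.66 (limma adjusted p = 0.0394), Trak1 by 1.40 and Rdx by 1.19. Gabarapl1 (−1.15), Clptm1 (−0.97) and Lhfpl4, a partner of GABA-A receptors (−0.81), were lower.

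Between the arrays numbered 1 and 0, no receptor probe set passed the adjusted threshold in limma with preparation as a term, against 0.0622% of all probe sets tested. The smallest adjusted p among the 46 was 0.693, and 6 had an unadjusted p under 0.05. All 6 were GABA-A probe sets; over all probe sets 5.86% had such a p. The numbers differed in the same direction in both preparations at 22 of the 46, 9 up and 13 down, where 24.9% and 26.6% of all probe sets did so. No receptor probe set was called under any of the alternatives with a test. Arrays 1 and 0 were at least 2-fold apart at 9 of the 46 for cDNA (13.4% of all probe sets) and at 8 for aRNA (8.58% of all).

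Gabra6 had the largest mean difference upward. At 1417121_at array 1 was above array 0 by 3.02 for cDNA and 0.35 for aRNA (mean 1.69, SE 0.55, limma adjusted p = 0.696). Grin2c followed with 2.01 and 0.14 (mean 1.07, limma adjusted p = 0.871), and Gabra2 at 1449807_x_at with 0.64 and 1.39 (mean 1.01, adjusted p = 0.871). In the first 2 the difference lay almost wholly between the cDNA arrays. In the other direction, Gabra2 at 1421738_at was lower on array 1 by −0.70 for cDNA and −1.99 for aRNA (mean −1.35, adjusted p = 0.693), Gabrg1 at 1427227_at by −0.52 and −2.10 (mean −1.31, adjusted p = 0.833) and Gabra2 at 1443865_at by −1.85 and −0.70 (mean −1.28, adjusted p = 0.779). Gabra2 thus lay both ways here as well, depending on the probe set.

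At the tested probe sets the classes differed in how the aRNA arrays compared. All 9 tested AMPA receptor probe sets were lower on aRNA array 1 than on aRNA array 0, with a median of −0.31. All 7 tested NMDA receptor probe sets were higher, with a median of 0.33. On the cDNA arrays 2 of the 9 and 6 of the 7 were lower on array 1. NMDA probe sets left out by the filter went both ways on aRNA. Grin2d 1421393_at (−0.68), Grin2b 1431700_at (−0.36) and Grin3a 1458378_at (−1.71) were lower on array 1. Grin2b 1422223_at (0.53) and Grin2a 1421616_at (1.44, under background) were higher. On aRNA array 1, 2 of 6 kainate and 4 of 5 glycine receptor probe sets were lower. Of 18 GABA-A probe sets 12 were lower on aRNA array 1, with a median of −0.66, and 10 lower on cDNA array 1. Over all probe sets 50.4% were lower on aRNA array 1 and 51.3% on cDNA array 1. These directions were noticed after the values were seen. The 2 aRNA arrays also differed in Xist (8.55 and 15.44) and Eif2s3y (13.12 and 6.79). Summed intensities of microglial genes differed between the same arrays, at 9318 and 61825 on aRNA and 22206 and 37859 on cDNA. Those of astrocyte genes did too (29746 and 71066 on aRNA, 72862 and 98754 on cDNA). Each gene of both lists was above background on all 4 arrays, but bright genes weigh most in a sum. Gfap differed most, with 9.19 and 14.46 on aRNA. Cx3cr1 was lower on array 1 for cDNA (8.87 and 8.19), and Aldh1l1 for aRNA (11.39 and 11.05). Their part in these directions was not tested.

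**Figure D4:**
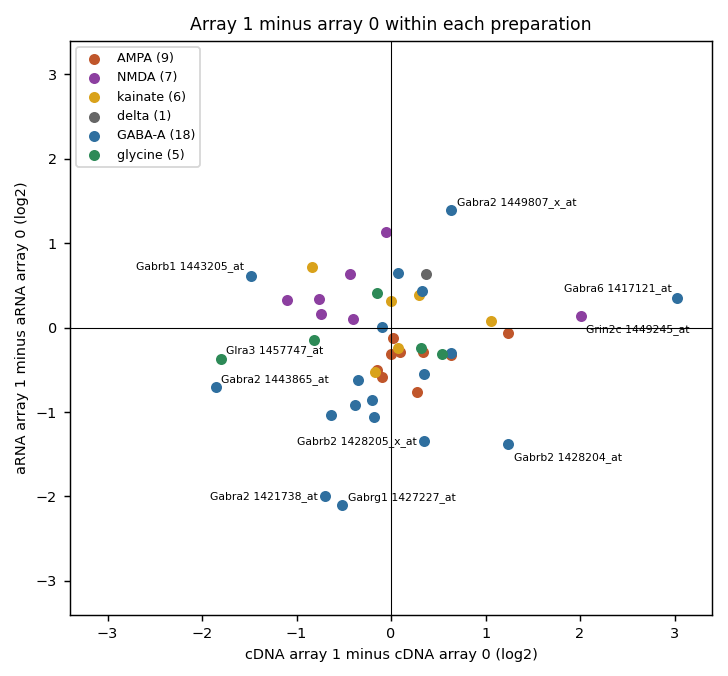
Array 1 minus array 0 on the cDNA arrays (x axis) and on the aRNA arrays (y axis), log2, for the 46 tested receptor probe sets coloured by class, with those named that differ by at least 1.3 in either preparation. All AMPA points lie below 0 on the y axis and all NMDA points above it, and Gabra6 is at 3.02 on the x axis.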

How the data were processed

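The authors deposited a linear intensity for every probe set of each array. Which software made it is not stated in the labels used here. Their 2% trimmed mean was 2500.02 on every array, so they were taken as scaled already and kept. They carry no detection call, and the 4 arrays limit the precision.

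Values were taken as log2(intensity + 16). The 64 control probe sets were left out, and the 22519 of 45037 with a mean at or above the median (8.38) were tested. Symbols came from the platform annotation and matched RefSeq gene identifiers for all 73 members. Members with several symbols, and subunits without a probe set so named, were not analysed here.

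For the preparations, limma 3.58.1 (R 4.3.3) was fitted to the 4 arrays with lmFit and eBayes (trend = TRUE), leaving 2 residual degrees of freedom, and p-values were adjusted over all probe sets tested by Benjamini-Hochberg. For the numbers, preparation was added as a term, leaving 1. The fits were also run on simulated arrays with far fewer changed probe sets than were called here. That run gives no error rate for these data. With an array of the lower group under background, the fold is a lower bound, taken against the higher of background and the probe set's own value. Alternatives changed the pseudocount (1, 64), the filter, the scaling, the trend, the probe sets kept, the arrays and the array number as a block. The number 1 minus number 0 differences of the 2 preparations correlated at 0.04 over the tested probe sets, so the numbers were not taken to pair the arrays.

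Values on every array are given for the brightest tested probe set of each gene called between the preparations, at most 5 per class and direction, for the 3 largest differences each way between the numbers, and for all tested probe sets of genes with opposite calls; the others named were chosen after their values were seen. The members and the lists of partner and marker genes were chosen with earlier results of these data known. Python 3.11.15 and matplotlib 3.10.9 made the plots.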

Additional observations from a re-analysis of the deposited data

Results flagged for a closer look

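Gabrb2, a GABA-A beta subunit, was picked out at probe set 1428204_at because the difference between the arrays numbered 1 and 0 ran in opposite directions in the preparations, by at least 2-fold in each. It was 1.24 on the cDNA arrays (12.39 on array 0 and 13.63 on array 1) and −1.38 on the aRNA arrays (13.44 and 12.07). With 1 array per number and preparation, this difference was not tested. At Gabrb2 probe set 1428205_x_at the differences were 0.35 and −1.34, and at 1428203_at and 1429685_at array 1 was lower in both preparations. Over all probe sets 48.5% had number differences in opposite directions.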

How the results depend on the processing

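The 26 calls between the preparations were the same 26 with a pseudocount of 1 or 64 and with quantile normalization. With the array number as a replicate block they were again 26 (16 higher, 10 lower), and the block changed no call. They numbered 20 without the intensity trend (lost: Gabrb2 1428203_at, Gria3 1434728_at, Gabra3, Grid1, Gabra2 1443865_at and Glrb 1459850_x_at), 23 with no filter, 24 with median centring and 25 without _x_at and _s_at probe sets. With 1 array left out the calls numbered 20 to 22, higher ones 11 to 15 and lower ones 7 to 9, and no shared call turned; a lone array is there assumed to vary like the other group. With the filter at the 75th percentile 14 were called (9 higher, 5 lower), since 12 of the 26 were no longer tested; 2 of 6 genes then had all probe sets on the same side, against 4 of 12 in the report and 8 of 23 with no filter, about the same share. Class medians moved most. The NMDA median was −0.33 at the 75th percentile, −0.0701 with no filter, and 0.0487 to 1.94 with 1 array left out. The glycine median was −0.52, −0.32 and −0.71 (at the 75th percentile, with no filter, and without _x_at and _s_at probe sets), and −0.66 to 0.47 with 1 array left out. With no filter the kainate median was 1.18, the delta median 0.72, and the delta median between the numbers 0.20; fewer or more probe sets enter these. With 1 array left out, differences that were not called turned sign at Grin2c (−0.0707 to 1.94), Gabra2 1449807_x_at (−0.73 to 0.66, with 0.29 without cDNA array 0) and Gabrb1 1419719_at (−0.43 to 0.22); the cause was not tested. Between the numbers, leaving out an array leaves no residual degree of freedom, so no test was made. With 2 arrays a group and classes of 1 to 18 tested probe sets, a median can rest on a single probe set.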
